A study of Mus musculus with 21 samples.

Results

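The 10 genes described here are the TGF-β ligands *Tgfb1*, *Tgfb2* and *Tgfb3*, the activin subunit gene *Inhba*, the receptor genes *Tgfbr1*, *Tgfbr2* and *Tgfbr3*, the latent TGF-β binding proteins *Ltbp1* and *Ltbp2*, and *Tgfbi*, which encodes a secreted matrix protein induced by TGF-β. They were chosen by gene symbol, as members of the pathway, out of 38730 genes that had at least 1 read in the series. All 10 passed the filter on low counts and were among the 19315 genes tested. Expression was measured by bulk RNA sequencing of 21 mouse mammary tumors, 9 from NeuNT controls (N) and 12 from the RhoC cohort (R). All of these mice carried FloxNeoNeuNT, an activated *Neu* cDNA in the *Erbb2* locus behind a Cre-removable stop, and MMTV-CreNLST, which drives Cre in mammary epithelium. RhoC mice also carried R26(RhoC/+), a Cre-inducible wildtype *RhoC* transgene in the *ROSA26* locus, and 7 of the 9 controls carried Gata4(loxP/+), so 1 *Gata4* allele was open to deletion by Cre in those mice. The other 2 controls, N-15 and N-17, carried FloxNeoNeuNT and MMTV-CreNLST without a *Gata4* loxP allele, and the labels give no ages. The control tumors came from 9 mice and the RhoC tumors were counted as coming from 8, with 4 tumors (R-13 to R-16) from mouse P497 and 2 (R-6 and R-7) from mouse N9255. The label of R-18 names no mouse and R-18 was counted as a mouse of its own.

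TGF-β is secreted in a latent complex, held to the matrix by latent TGF-β binding proteins, and is released by proteases or integrins. The released dimer binds TGFBR2, which phosphorylates TGFBR1, and the betaglycan TGFBR3 presents ligand to this pair. The signal passes to Smad2 and Smad3, restrains proliferation of normal mammary epithelium and is a known inducer of epithelial-mesenchymal transition. Activin A, a dimer of the *Inhba* product, uses its own receptors and the same Smads.

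The study compared the cohorts to look for transcripts that go with faster tumor formation when *RhoC* is added. Total counts ranged from 47309780 to 100741339 reads per tumor, and each of the 10 genes had at least 312 reads in every tumor. *Rhoc*, whose cDNA is the transgene, had mean levels of 88.8 ± 33.5 CPM (SD, n = 12) in the RhoC cohort and 77.7 ± 53.7 CPM (SD, n = 9) in controls, a log2 fold change of 0.19 (SE 0.34, edgeR adjusted p = 0.774), a difference within the spread between tumors. Luminal epithelial markers were present in every tumor, with summed levels of 1242 to 6055 CPM over 8 genes. Of these 8 genes 0 had a higher mean in RhoC tumors and 0 were called, with median sums of 2615 CPM (RhoC) and 2824 CPM (control). N-17 had 4514 CPM of skeletal muscle markers and 742 CPM of adipocyte markers, where the control medians of these sums were 1.33 and 4.28 CPM. It also had the highest fibroblast, endothelial and smooth muscle sums of the controls, at 850.1, 819 and 1059.8 CPM against control medians of 473, 225 and 539 CPM. R-10 had 759.4 CPM of skeletal muscle markers (RhoC median 1.55) and the highest fibroblast and endothelial sums of the RhoC cohort (1063 and 525 CPM), and the part of muscle and stroma in the levels of the 10 genes was not tested. Bulk RNA cannot separate a change in the number of cells of a type from a change in RNA per cell. Histology comes from the study's tumor list and not from the sample labels, so values by histology are described and were not tested. It names squamous cell carcinoma (SCC) for R-6, R-13 and R-14, complex adenocarcinoma (CAC) for N-4, R-7, R-10, R-12 and R-16, solid nodular carcinoma (SNC) for N-7, N-9 and R-1, and poorly differentiated adenocarcinoma (PDA) for N-3, N-6, N-8 and N-15. N-1 is a spindle cell tumor, R-2 is PDA with adenomyoepithelioma, R-15 is SNC or PDA, and N-17, R-18 and R-21 have no histology; the label of R-21 gives the mouse that the list gives for R-20.

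The sequences upstream of *Tgfb1*, *Inhba* and *Tgfbi* are shown because these were the 3 genes with the smallest unadjusted p among the 10, and because the last 2 varied together across mice. They are from RefSeq on GRCm38.p6, 5′ to 3′ on the plus strand, and end at the base before the gene, at chr7:25686752-25687001 for *Tgfb1*, chr13:16011601-16011850 for *Inhba* and chr13:56609336-56609522 for *Tgfbi*. Capitals mark CAGAC or its reverse complement GTCTG, the letters of the short Smad-binding element.
Tgfb1: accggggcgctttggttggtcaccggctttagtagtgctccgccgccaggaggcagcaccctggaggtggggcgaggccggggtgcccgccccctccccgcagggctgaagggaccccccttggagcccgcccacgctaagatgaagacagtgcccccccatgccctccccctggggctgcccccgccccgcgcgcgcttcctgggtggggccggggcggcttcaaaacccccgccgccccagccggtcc
Inhba: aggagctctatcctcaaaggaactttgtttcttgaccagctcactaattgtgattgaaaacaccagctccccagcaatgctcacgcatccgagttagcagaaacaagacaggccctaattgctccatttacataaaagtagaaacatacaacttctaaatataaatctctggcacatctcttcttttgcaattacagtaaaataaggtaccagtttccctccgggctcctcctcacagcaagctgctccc
Tgfbi: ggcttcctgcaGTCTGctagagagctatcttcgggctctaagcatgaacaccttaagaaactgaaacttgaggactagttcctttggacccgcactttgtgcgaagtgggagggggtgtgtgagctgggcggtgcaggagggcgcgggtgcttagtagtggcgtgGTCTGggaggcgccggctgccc
The 250 bases before the *Tgfb1* start were 75.2% G and C and those before *Inhba* 43.2%, against a median of 52.4% over 32851 RefSeq promoters of mouse. CAGAC on either strand was found 2 times upstream of *Tgfbi* and was not found in the windows of *Tgfb1* and *Inhba*, and 42.19% of all promoters held it. Neither the AP-1 letters TGANTCA (6.749% of all promoters) nor the TEAD letters GGAATG (12.64%) were found in any of the 3 windows on either strand. A match of such short letters is a description of the sequence and not a binding site.

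No gene of the 10 passed an adjusted p of 0.05 with edgeR's quasi-likelihood test on the counts, against a background of 0.223% of all genes tested (43 of 19315; 0.0932% higher in RhoC tumors). At an unadjusted p under 0.05, 3 of the 10 were higher in RhoC tumors and 0 were lower, where 10.5% of all genes tested were higher and 9.93% lower (20.5% in all). These 3 were *Tgfb1*, *Inhba* and *Tgfbi*. The median log2 fold change of the 10 genes was 0.084, beside -0.0052 over all genes tested, and 7 of the 10 were positive, beside 49.6% of all genes. DESeq2, which called 6.24% of all genes (1206; 3.66% as higher), called 2 of the 10 as higher, *Tgfb1* (adjusted p = 0.0162) and *Inhba* (adjusted p = 0.0448). Log2 fold changes are RhoC over control, CPM is the counts-per-million level over tested genes after TMM scaling, and exact permutation tests are 2-sided, on mean log2 CPM over all 293930 labelings of the tumors. At an exact permutation p under 0.05, 2 of the 10 genes were higher in RhoC tumors, *Tgfb1* and *Ltbp2*, and 0 were lower, beside 9.55% of all genes tested higher and 17.8% in either direction.

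**Figure D1:**
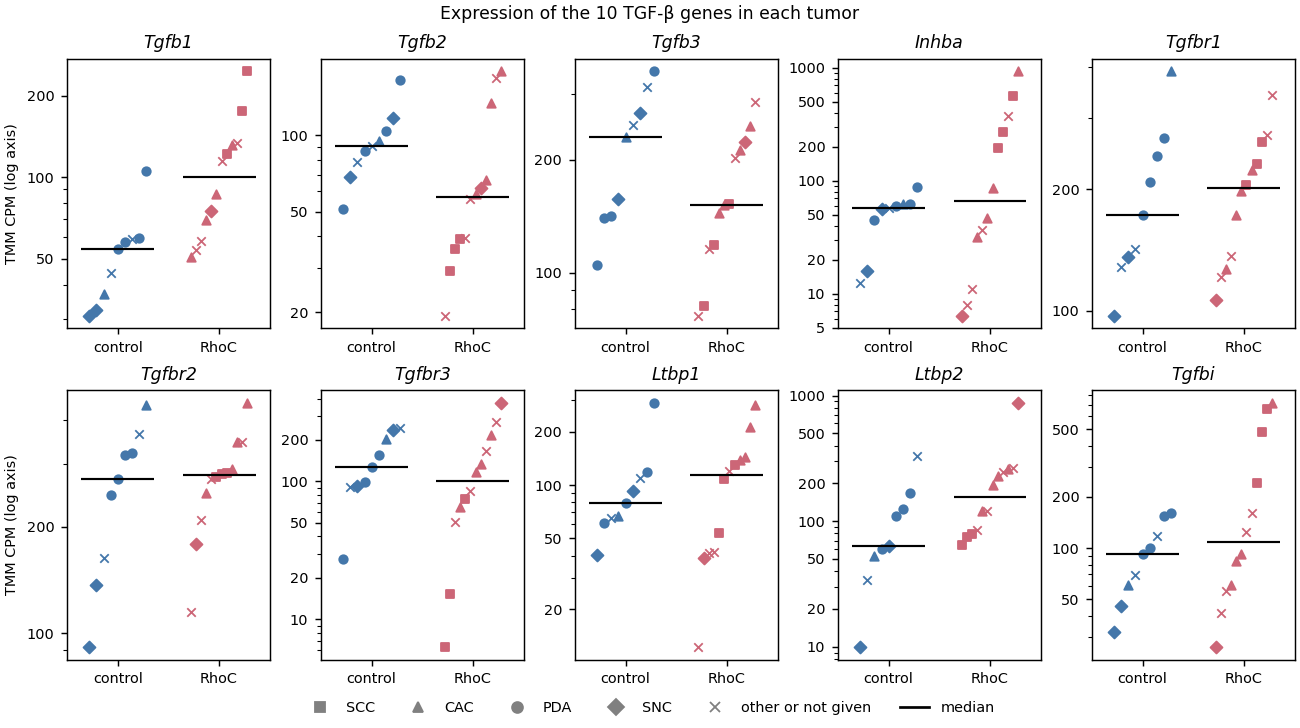
TMM-scaled CPM (log axis) of the 10 genes in each of 9 control and 12 RhoC tumors, with the median of each cohort as a bar, tumors sorted by value within a cohort and the symbol giving the listed histology. *Tgfb1* was above the control median in 10 of 12 RhoC tumors, and *Inhba* spread from 6.37 to 928 CPM in the RhoC cohort.

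Among the ligands, *Tgfb1* (ENSMUSG00000002603.15, chromosome 7, 25687002 to 25705077) was the gene with the smallest p of the 10. In control tumors it ran from 30.7 CPM in N-9 through a median of 54.2 to 105.5 in N-8, and in RhoC tumors from 50.6 CPM in R-7 through a median of 100.3 to 246 in R-6. The cohorts overlapped, but 10 of 12 RhoC tumors lay above the control median and 6 lay above every control, while 4 of 9 controls lay below every RhoC tumor. The means were 109.7 ± 57.7 CPM (SD, n = 12) and 53.3 ± 22.7 CPM (SD, n = 9), a log2 fold change of 1.04 (SE 0.29, edgeR adjusted p = 0.0821). The exact permutation test on the tumors gave p = 0.00349, and on the mean of each mouse (9 against 8 mice) p = 0.00609, both unadjusted. With counts summed per mouse the log2 fold change was 0.87 (edgeR adjusted p = 0.209), and without mouse P497 0.97 (edgeR adjusted p = 0.306). Voom with a random term for mouse gave 0.92 (adjusted p = 0.258). Without the 3 SCC tumors the log2 fold change was 0.69 (edgeR adjusted p = 0.229) and the exact permutation p was 0.0174.

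*Tgfb2* and *Tgfb3* had negative log2 fold changes. *Tgfb2* (ENSMUSG00000039239.14, chromosome 1, 186622792 to 186705989) ran from 51.3 CPM through a median of 90.5 to 166 in controls and from 19.3 CPM in R-21 through a median of 57.3 to 179 in R-10 among RhoC tumors. The RhoC tumors lay on both sides of the controls, since 5 were below every control and 2, R-10 and R-18, were above every control. The log2 fold change was -0.37 (SE 0.35, edgeR adjusted p = 0.565; exact permutation p = 0.102). The 5 tumors below every control included all 3 SCC tumors, at 29.0 to 38.8 CPM. The highest *Tgfb2* level was in R-10, the RhoC tumor with skeletal muscle markers. With a tumor left out the exact permutation p ran from 0.0348 to 0.183. It was under 0.05 only without R-10 (0.0348) or R-18 (0.0390), the 2 tumors above every control. The exact permutation p was 0.271 on mouse means and 0.356 without the SCC tumors. *Tgfb3* (ENSMUSG00000021253.7, chromosome 12, 86056745 to 86079041) ran from 104.9 to 345 CPM in controls, with a median of 230.5, and from 76.7 to 285 CPM (median 152) in the RhoC cohort. Only R-2 and R-13 lay below every control, and the log2 fold change of -0.37 (SE 0.25, edgeR adjusted p = 0.408) was within the spread between tumors. *Tgfb3* overlaps *Ttll5*, which held 63368 reads over the 21 tumors beside 255423 on *Tgfb3*.

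The balance between the 3 TGF-β genes was compared in the FPKM deposited by the authors, a scale that takes account of gene length. *Tgfb3* had the largest FPKM of the 3 in 16 of 21 tumors, including all 9 controls, and *Tgfb1* in the other 5, R-6, R-12, R-13, R-14 and R-21. *Tgfb1* made up 11.5% to 35.5% of the summed FPKM in controls, with a median of 17.7%, and 15.4% to 69.3% (median 40.1%) in RhoC tumors. In 7 of 12 RhoC tumors the share lay above every control, and the lowest shares of the RhoC cohort, in R-18 and R-7, were inside the control range. The mean share was 40.9 ± 18.3% (SD, n = 12) in RhoC tumors and 20.8 ± 7.69% (SD, n = 9) in controls, a difference of 20.1 percentage points (exact permutation p = 0.00600). Adjusted over the shares of *Tgfb1* and *Tgfbr3* alone, this p was 0.0120. The permutation p of the other ligand and receptor shares was also computed and was left out of the adjustment. Averaged per mouse the difference was 17.4 points (exact permutation p = 0.00679), and without the SCC tumors it was 13.1 points (exact permutation p = 0.0253). The shares of *Tgfb3* were correspondingly 46.8 ± 13.2% and 61.7 ± 10.9%, and those of *Tgfb2* 12.2 ± 7.41% and 17.5 ± 7.06% (SD, n = 12 and 9). Their unadjusted exact permutation p was 0.0133 and 0.115.

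**Figure D2:**
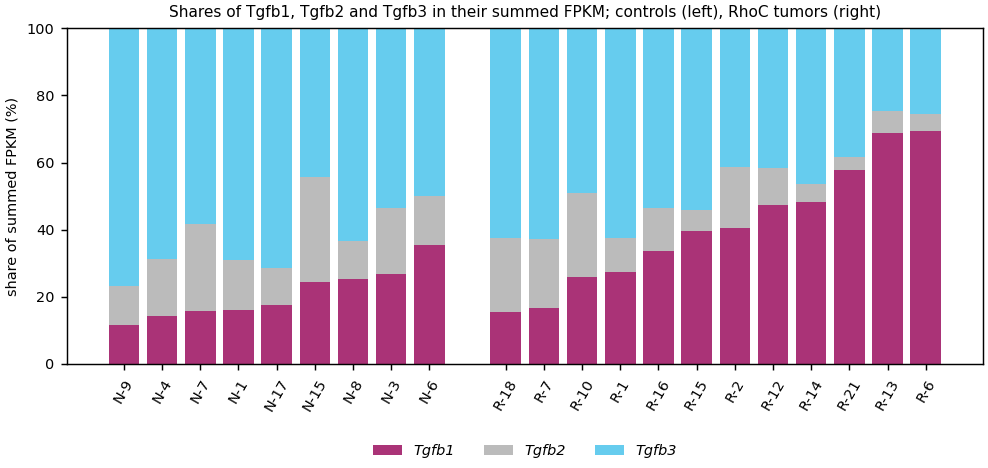
Percentage of *Tgfb1*, *Tgfb2* and *Tgfb3* in their summed FPKM, with 1 bar per tumor sorted by the *Tgfb1* share, controls on the left and RhoC tumors on the right. *Tgfb1* exceeded the highest control share of 35.5% in 7 of 12 RhoC tumors, and reached 68.9% in R-13 and 69.3% in R-6.

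*Inhba* (ENSMUSG00000041324.14, chromosome 13, 16011851 to 16031621) varied more than any other of the 10 genes, 146-fold between R-12 and R-1. It was at 12.4 CPM in N-17, 15.8 in N-9 and 45.1 to 88.1 in the other 7 controls. In RhoC tumors it lay above every control in 5 tumors, at 193 CPM in R-6, 269 in R-14, 371 in R-15, 559 in R-13 and 928 in R-12, and below every control in 3, at 6.37 in R-1, 8.0 in R-18 and 10.97 in R-21. The RhoC cohort therefore extended past the controls at both ends. The means were 212 ± 285 CPM (SD, n = 12) and 51.1 ± 23.8 CPM (SD, n = 9), a log2 fold change of 2.06 (SE 0.78, edgeR adjusted p = 0.157). On the log scale, which weighs the low tumors as much as the high ones, the difference was 0.76 (exact permutation p = 0.391), and over mouse means it was 0.025 (exact permutation p = 0.979). Without R-12 the log2 fold change was 1.53, and voom with a random term for mouse gave 0.40 (adjusted p = 0.867).

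The receptors showed no cohort difference beyond the spread between tumors. *Tgfbr1* (ENSMUSG00000007613.15, chromosome 4, 47353222 to 47414931) encodes the type I kinase and was at 199.7 ± 71.2 CPM (SD, n = 12) in the RhoC cohort and 198 ± 91.2 CPM (SD, n = 9) in controls. *Tgfbr2* (ENSMUSG00000032440.13, chromosome 9, 116084293 to 116175360) encodes the type II kinase and was at 274 ± 85.3 and 262 ± 114 CPM (SD, n = 12 and 9). Their log2 fold changes were 0.012 (SE 0.24) and 0.068 (SE 0.25), with folds of 1.01 (95% interval 0.723 to 1.41) and 1.05 (0.746 to 1.47), so changes of up to about 1.4-fold in either direction lay inside the intervals. The highest *Tgfbr1* level was in the control N-4, at 391 CPM, and the highest *Tgfbr2* level was in R-16, at 447 CPM, just above N-4 at 441.

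*Tgfbr3* (ENSMUSG00000029287.14, chromosome 5, 107106570 to 107289629), the coreceptor, had a wider range of 59.6-fold. It ran from 27.2 to 246 CPM in controls, with a median of 126, and from 6.26 CPM in R-6 to 373 in R-1 among RhoC tumors. The SCC tumors R-6 and R-13 (15.3 CPM) were below every control, and R-1 and R-21 (269.5 CPM) were above every control. The log2 fold change was -0.11 (SE 0.51, edgeR adjusted p = 0.918; exact permutation p = 0.429). *Tgfbr3* made up 22.5 ± 16.8% of the summed receptor FPKM in RhoC tumors and 26.5 ± 13.1% in controls (SD, n = 12 and 9), a difference of -4.09 percentage points (exact permutation p = 0.555), which turned to 1.39 points without the SCC tumors. In R-6 the share was 1.44%, whereas in R-1 it was 60.1%.

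Of the latent TGF-β binding proteins, *Ltbp2* (ENSMUSG00000002020.15, chromosome 12, 84783212 to 84876532) had the larger log2 fold change. It ran from 9.90 CPM in N-9 through a median of 63.1 to 333 in N-17 among controls, and from 64.9 CPM in R-14 through a median of 157 to 877 in R-1 among RhoC tumors. The control median was exceeded in 12 of 12 RhoC tumors, but only R-1 lay above every control. The log2 fold change was 1.04 (SE 0.53, edgeR adjusted p = 0.272), and the exact permutation p was 0.0458 on tumors and 0.0472 on mouse means. This p was over 0.05, at 0.0617 to 0.115, when any of N-1, N-4, N-6, N-7, N-9, R-1, R-2, R-7, R-10, R-15 or R-16 was left out, and leaving out N-17, the tumor with the highest skeletal muscle and adipocyte markers, lowered it to 0.0104. Without R-1 the log2 fold change was 0.57. *Ltbp1* (ENSMUSG00000001870.16, chromosome 17, 75005568 to 75391767) ran from 40.1 to 291 CPM in controls and from 12.2 to 281 CPM in RhoC tumors, with a log2 fold change of 0.10 (SE 0.44, edgeR adjusted p = 0.915).

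*Tgfbi* (ENSMUSG00000035493.10, chromosome 13, 56609523 to 56639562) followed the pattern of *Inhba* at the upper end. Controls ran from 31.9 CPM in N-9 through a median of 92.8 to 160.3 in N-8, and RhoC tumors from 26.1 CPM in R-1 through a median of 108 to 717 in R-12. The 5 RhoC tumors above every control were R-12, R-6 (657 CPM), R-13 (483), R-14 (243) and R-15 (162), the last by a margin of about 1 CPM. The means were 229 ± 248 CPM (SD, n = 12) and 92.5 ± 45.6 CPM (SD, n = 9), a log2 fold change of 1.31 (SE 0.56, edgeR adjusted p = 0.196; exact permutation p = 0.236). Without the SCC tumors it was 0.71 (edgeR adjusted p = 0.528).

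**Figure D3:**
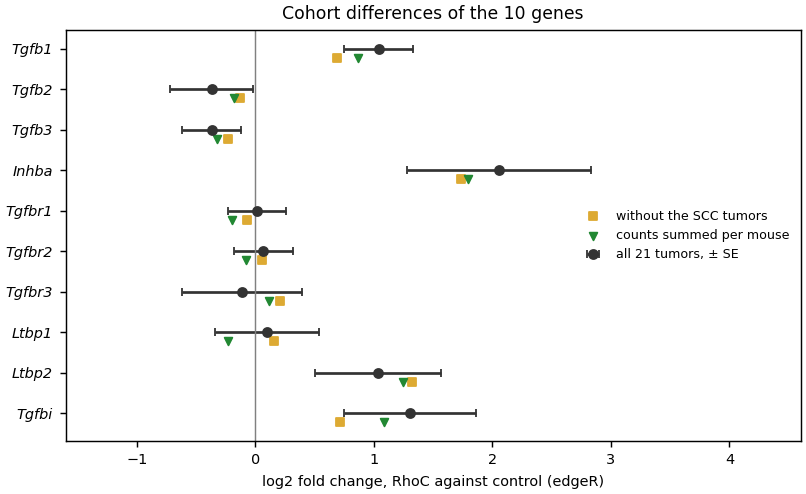
Log2 fold change of RhoC against control tumors for the 10 genes from edgeR, with bars of 1 SE over all 21 tumors, and the values without the 3 SCC tumors (squares) and after summing counts per mouse (triangles). *Tgfb1*, *Inhba*, *Ltbp2* and *Tgfbi* stayed above 0 in these fits, whereas the receptors and *Ltbp1* lay near 0.

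The high values of *Tgfb1*, *Inhba* and *Tgfbi* were in the same tumors. In 5 RhoC tumors from 3 mice, R-6, R-12, R-13, R-14 and R-15, all 3 genes were above every control, and only R-21 was above every control for 1 of them alone (*Tgfb1*, 134 CPM). Among these 5 tumors were all 3 listed as SCC, a CAC and the tumor listed as SNC or PDA. The other 3 RhoC tumors listed as CAC, R-7, R-10 and R-16, had 50.6, 86.5 and 69.6 CPM of *Tgfb1* and 60.4, 92.4 and 84.3 CPM of *Tgfbi*, all below the highest control. Tumors of the same mouse differed in this way. In mouse N9255 the SCC R-6 had 246 CPM of *Tgfb1*, 193 of *Inhba* and 657 of *Tgfbi*, whereas the CAC R-7 had 50.6, 47.2 and 60.4 CPM of these genes. In mouse P497 *Tgfbi* was at 483 and 243 CPM in the SCC tumors R-13 and R-14, at 162 in R-15 and at 84.3 in the CAC R-16, and *Inhba* was at 559, 269, 371 and 85.6 CPM. The receptor *Tgfbr3* was at 6.26 CPM in R-6 and 134 in R-7 of mouse N9255, and at 15.3, 74.5, 165.6 and 116.6 CPM in R-13, R-14, R-15 and R-16 of mouse P497, so it was lower than in the CAC tumor of the same mouse in the 3 SCC tumors and higher in R-15.

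Among these tumors R-6, R-12, R-13 and R-14 had high sums of basal epithelial markers. The summed level of 8 such markers (*Krt5*, *Krt14*, *Krt17*, *Trp63*, *Oxtr*, *Mylk*, *Itgb4* and *Lamb3*) was 21594 CPM in R-6, 16684 in R-13, 7856 in R-14 and 6769 in R-12, and in no other tumor was it over 3834 CPM, the value of the spindle cell tumor N-1. R-15 had 2117 CPM, close to R-2 at 2118. In the cohorts the sum ranged from 214 to 21594 CPM (RhoC) and from 222 to 3834 CPM (control), and 7 of 8 markers had a higher mean in RhoC tumors, with 0 called. Squamous keratinocyte markers were at 5128, 2451 and 857 CPM in R-6, R-13 and R-14, 366 in R-12 and 42.0 in R-15, and at most 4.17 CPM in the other RhoC tumors. Controls carried them too, at 799 CPM in N-1, 554 in N-15, 237 in N-9 and 56.7 in N-7 (control median 6.0), so N-1 and N-15 lay above R-12 and R-15. Of the 8 squamous markers 4 passed the count filter, 5 had a higher mean in RhoC tumors and 0 were called. The part of these cells in the levels of *Tgfb1*, *Inhba* and *Tgfbi* was not tested. N-1, with the highest basal and squamous sums of the controls, had *Tgfb1*, *Inhba* and *Tgfbi* levels of 44.1, 57.6 and 69.6 CPM, and N-15 had 59.4, 62.8 and 155 CPM, all within the range of the other controls. The summed platelet markers were highest in the SCC tumors through *Ppbp* alone (344, 66.3 and 128 CPM in R-6, R-13 and R-14), while *Pf4* was at most 5.62 CPM there and 5 of the 8 platelet markers were under 1 CPM in every tumor. Of the 8 neutrophil markers 6 passed the count filter and 3 had a count in every tumor. Their sum had its control maximum in N-8 (259.8 CPM, control median 37.3) and its RhoC maximum in R-6 (760.3 CPM, RhoC median 27.4). These were the tumors with the highest *Tgfb1* of each cohort. R-6 also had the highest squamous keratinocyte sum (5128 CPM), and N-8 the highest macrophage sum of the controls (1180.05 CPM, control median 867). Macrophage markers ranged from 392 to 1299 CPM in RhoC tumors and from 334 CPM in controls, and of the 8 neutrophil and 8 macrophage markers 4 and 3 had a higher mean in the RhoC cohort, with 0 called. The part of platelets, neutrophils and macrophages in the levels of the 10 genes was not tested.

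**Figure D4:**
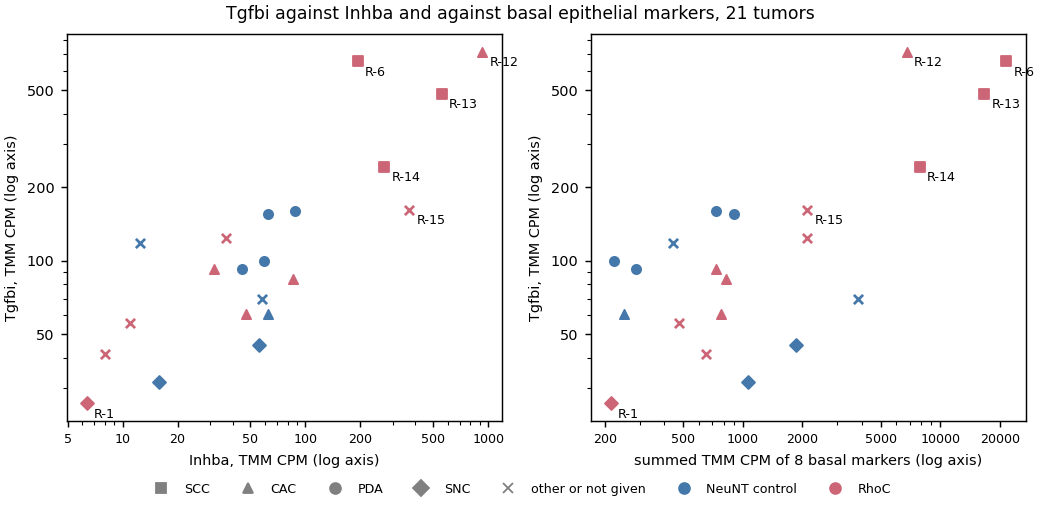
*Tgfbi* CPM against *Inhba* CPM (left) and against the summed CPM of 8 basal epithelial markers (right) in 21 tumors, all axes log, coloured by cohort with symbols for listed histology. R-12, R-13, R-6 and R-14 had the 4 highest *Tgfbi* levels and the 4 highest sums of basal markers, and R-1 had the lowest *Tgfbi* and *Inhba* levels.

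Relations between the 10 genes were computed over the mean log2 CPM of each of 17 mice, and 1 of 45 pairs passed an adjusted p of 0.05. This pair was *Inhba* and *Tgfbi*, with Spearman's rho 0.80 (permutation p = 0.000200, adjusted p = 0.00900) and Pearson's r 0.84 (permutation p = 7.0e-05, adjusted p = 0.00315). Without the 2 mice farthest from the median of *Inhba* r was 0.65. Within cohorts r was 0.97 over 8 RhoC mice and 0.33 over 9 control mice, and the difference between these values was not tested. Without the SCC tumors rho was 0.67 and the adjusted p was 0.163. *Tgfb1* and *Tgfbi* had rho 0.58 and r 0.60 over the 17 mice (permutation p = 0.0156 and 0.00979), with adjusted p = 0.0877 and 0.161. *Tgfb1* and *Inhba* had rho 0.28 and r 0.34 (permutation p = 0.277 and 0.189). *Ltbp1* and *Tgfbi* had rho 0.70 (permutation p = 0.00232, adjusted p = 0.0522).

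Of 14516 tested genes with a mean log2 CPM over 0, the genes whose log2 CPM ranked most like each member across the 21 tumors are given as a description, since tumors of 1 mouse are not independent. For *Tgfb1* they were *Bmp1*, a procollagen C-proteinase that also cleaves latent TGF-β binding protein (Spearman's rho 0.93), and *Mb21d2* (0.89). For *Tgfbi* they were *Elf4* (0.94) and the Notch ligand gene *Jag1* (0.93), and for *Inhba* the predicted gene *Gm47766* (0.92) and the actin crosslinker gene *Actn1* (0.90). *Tgfbr1* was most like *Clec7a* (0.90) and *Havcr2* (0.89), which are genes of myeloid cells. *Ccdc80* was among the genes most like *Tgfbr2* (0.84), and *Tgfbr3* was most like *Ap4s1* (0.90) and the glutathione transferase gene *Gstm1* (0.82). The same measure named 2 genes each for *Ltbp2* (*Gna12* 0.85, *Amacr* 0.82), *Tgfb3* (*Prxl2a* 0.83, *Ppfibp2* 0.78), *Ltbp1* (*Gper1* 0.79, *Tuba1a* 0.78) and *Tgfb2* (*Coa7* 0.78, *Wdr12* 0.76).

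The wider pathway was followed with a list of 84 other genes in 6 roles, of which 80 were tested. None was called by edgeR, 10 were higher and 5 lower at an unadjusted p under 0.05, beside 10.5% and 9.93% of all genes tested, and the median log2 fold change was 0.26. DESeq2, which called 6.24% of all genes tested, called 7 of the 80, *Bmp1*, *Grem1*, *Smad7*, *Trim33*, *Cdkn1a*, *Cdkn2b* and *Pthlh*.

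In the role of latent complex and activation, 2 of 12 genes had an unadjusted p under 0.05 and were higher, beside 10.5% of all genes. *Bmp1* was at 159 ± 109 CPM (SD, n = 12) in the RhoC cohort and 67.9 ± 42.0 CPM (SD, n = 9) in controls, with a log2 fold change of 1.23 (SE 0.40, edgeR adjusted p = 0.116), and *Ltbp4*, a further latent TGF-β binding protein, had 1.05 (SE 0.47, edgeR adjusted p = 0.214). *Itgav*, a subunit of integrins that release TGF-β, followed by p at 0.60 (SE 0.32, edgeR adjusted p = 0.283). Among activin and BMP ligands 0 of 8 tested genes reached that p, and the 3 with the smallest p were *Bmp6*, *Inha* and *Gdf15*, at log2 fold changes of 1.22, 1.11 and 0.73 (edgeR adjusted p = 0.340 to 0.588). Each of these values rested on 1 RhoC tumor, since without R-21 *Bmp6* was at 0.13 and *Inha* at 0.23, and without R-10 *Gdf15* was at 0.076. Among other receptors 1 of 10, *Acvr2a*, an activin receptor, was lower at -0.39 (SE 0.17, edgeR adjusted p = 0.213), followed by p by *Acvr1c* at -2.38 and *Bmpr1b* at 1.36. *Acvr1c* was at 23.5 CPM in 1 control and had a control median of 0.525 CPM, and without that tumor, N-17, its log2 fold change was -0.90. *Bmpr1b* had a RhoC median of 2.12 CPM, below its control median of 2.64 CPM. Without R-12 its log2 fold change was 0.85.

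Of 11 extracellular inhibitors tested, *Grem1*, a BMP antagonist, was higher at a log2 fold change of 3.92 (SE 1.43, edgeR adjusted p = 0.144), with levels of 0.0296 to 86.3 CPM in RhoC tumors and at most 7.04 CPM in controls. Without the SCC tumors it was 1.58 (edgeR adjusted p = 0.542), and without mouse P497 2.75. *Dcn*, the proteoglycan decorin that binds TGF-β, was lower at -1.57 (SE 0.63, edgeR adjusted p = 0.175), and 1 of 12 RhoC tumors lay above its control median of 96.7 CPM. The activin-binding *Fstl3* was at -1.31 (SE 0.62, edgeR adjusted p = 0.238), and the control mean rested on a tumor at 226 CPM, since the control median was 9.36 CPM and the RhoC median 18.2 CPM, and without that tumor, N-8, the value was -0.39.

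Among 17 Smads and regulators 3 were higher and 2 lower at that p, against the same shares of all genes as above. *Smad7*, the inhibitory Smad induced by TGF-β, was at 84.3 ± 36.7 CPM (SD, n = 12) against 48.6 ± 18.5 CPM (SD, n = 9), a log2 fold change of 0.79 (SE 0.26, edgeR adjusted p = 0.116) with 11 of 12 RhoC tumors above the control median. *Smad3* was at 0.49 (SE 0.19, edgeR adjusted p = 0.172) with 12 of 12 above it, and *Trim33*, a ubiquitin ligase acting on Smad4, was at -0.39 (SE 0.13, edgeR adjusted p = 0.118) with 1 of 12 above it.

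Of 22 target genes 4 were higher at that p and 0 lower, where 10.5% and 9.93% of all genes tested were, and 17 had a positive log2 fold change, as 49.6% of all genes had. The cell-cycle inhibitor genes *Cdkn2b* and *Cdkn1a* had the smallest p of the list. *Cdkn2b* was at 23.6 ± 15.7 CPM (SD, n = 12) in the RhoC cohort and 8.35 ± 3.95 CPM (SD, n = 9) in controls, a log2 fold change of 1.5 (SE 0.41, edgeR adjusted p = 0.0798), which was 0.86 without mouse P497. *Cdkn1a*, which is also a target of p53, was at 239 ± 96.0 CPM (SD, n = 12) against 103 ± 74.9 CPM (SD, n = 9), a log2 fold change of 1.21 (SE 0.35, edgeR adjusted p = 0.0897) with all 12 RhoC tumors above the control median. *Pthlh*, the gene of parathyroid hormone-related protein, was at 3.81 (SE 1.18, edgeR adjusted p = 0.104), with 0.182 to 121.8 CPM in RhoC tumors and 0.0332 to 10.7 CPM in controls, and without the SCC tumors it was 2.22. With only the Gata4(loxP/+) controls *Cdkn1a* was the 1 pathway gene that passed (edgeR adjusted p = 0.0392), in a fit that called 2.22% of all genes (438 of 19699), and without N-15 *Cdkn2b*, *Cdkn1a* and *Pthlh* passed (edgeR adjusted p = 0.0366 to 0.0498), in a fit that called 1.77% (346 of 19579).

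**Figure D5:**
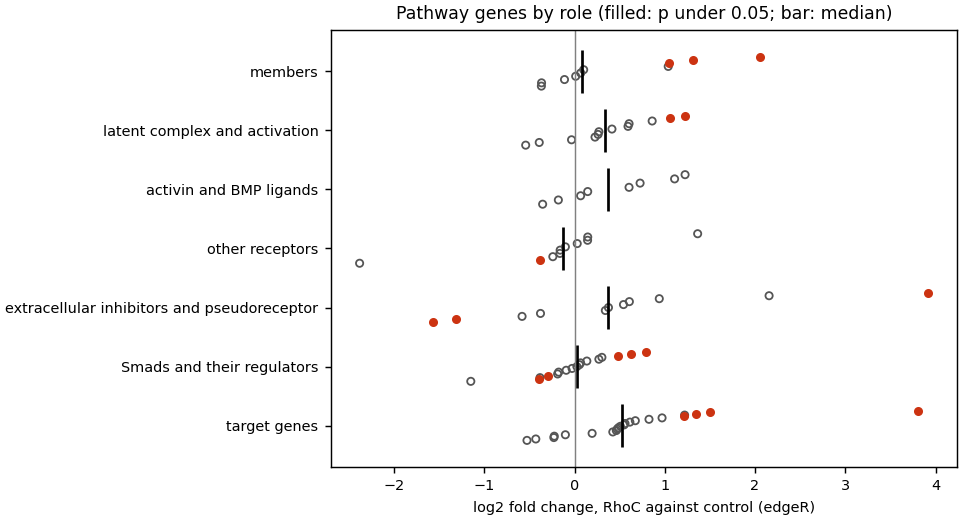
Log2 fold change of RhoC against control tumors (edgeR) for the 10 genes and the 80 tested pathway genes by role, with the median of each role as a bar and filled points at an unadjusted p under 0.05. No point passed an adjusted p of 0.05, and 17 of 22 target genes lay above 0, beside 49.6% of all genes tested.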

How the data were processed

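RNA from 21 mouse mammary tumors had been sequenced after ribosomal RNA depletion with a stranded total RNA kit. The authors deposited raw counts per gene for each tumor, made from reads that had been quality-checked (FastQC 0.11.5), trimmed (Trim Galore 0.5.0), aligned to GRCm38.p6 (STAR 2.6.0c) and counted (HTSeq 0.6.1p2), with versions from the submitters' processing notes. Reads on more than one gene had been discarded, and the strand setting of the counting is not given in the sources used here. The authors also deposited FPKM per tumor, used here for shares between genes, and their own fold changes and p-values from DESeq2 and edgeR, which were not used.

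Counts were tested with edgeR 4.0.16 in R 4.3.3 (TMM, filterByExpr by cohort, quasi-likelihood test, no covariates), with Benjamini-Hochberg adjustment over 19315 genes and calls at 0.05. The 2 control genotypes were pooled, as in the study. The SE is the log2 fold change divided by the square root of F. Log2 CPM used a prior count of 2. Single values were compared by exact permutation of tumor labels, and correlations by 100000 permutations. On simulated data for this comparison, 77% of genes changed 4-fold and 89% of those changed 8-fold were called, with 7 unchanged genes among 173 calls. The simulated tumors had no mouse effect and no smaller folds, so recovery of changes under 4-fold was not measured. Total counts were 47309780 to 100741339 per tumor. P-values take tumors as separate samples, although mouse P497 gave 4 and N9255 2, and limma 3.58.1 put the within-mouse correlation at 0.27. Batches are not named in the labels, so within-batch values were not available.

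Alternatives were DESeq2 1.42.0, library size in place of TMM, no filter, counts summed per mouse, voom with a random term for mouse, only Gata4(loxP/+) controls, fits without mouse P497 or the SCC tumors, each tumor left out, another prior count, and a replicate block. Pathway genes named are the 3 of smallest p per role, and the 2 most alike genes per member are named, except for a result that is not reported here. The members and lists were chosen with earlier results of these data known. Promoter sequences are from RefSeq (GRCm38.p6), where 8 of the 10 members matched; the window of Tgfbi was shortened by 63 bases, which lie inside the gene in the deposited annotation.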

Additional observations from a re-analysis of the deposited data

Results flagged for a closer look

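Dixon's test at the 95% level was applied to 12 groups of control values (10 genes and 2 shares, 9 tumors each). In 3 of the 12 groups 1 tumor stood apart from the others. The test flags about 1 in 20 groups by chance where values are normally distributed. For the 3 flagged genes it was on CPM, where a high value stands farther apart than on log2 CPM. *Tgfb1* was at 105.5 CPM in N-8, where the next control had 59.4 CPM, and N-8 also had the highest neutrophil (259.8 CPM) and macrophage (1180.05 CPM) marker sums of the controls. *Ltbp1* was at 291 CPM in N-15, where the next control had 118 CPM. *Ltbp2* was at 333 CPM in N-17, where the next control had 168 CPM, and N-17 is the tumor with 4514 CPM of skeletal muscle markers. Without N-8 the log2 fold change of *Tgfb1* was 1.23, without N-15 that of *Ltbp1* was 0.48, and without N-17 that of *Ltbp2* was 1.49.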

How the results depend on the processing

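No member passed edgeR's adjusted p of 0.05 under any alternative fit or with any tumor left out (0 to 0 calls), whereas DESeq2 called 2. Pathway calls were 7 with DESeq2, 1 with only the Gata4(loxP/+) controls and 0 to 3 with a tumor left out (3 without N-15). Calls over all genes, 43, were 1206 with DESeq2, 27 with library size, 46 without the filter, 3 with counts summed per mouse, 3 with voom, 438 with only the Gata4(loxP/+) controls, 3 without mouse P497, 26 without the SCC tumors and 14 (without N-9) to 346 (without N-15) with a tumor left out. The log2 fold changes of *Tgfb1*, *Inhba*, *Ltbp2* and *Tgfbi* kept their sign in every fit, and that of *Tgfb1* was 0.87 to 1.23 with a tumor left out.

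Members near 0 turned. *Tgfbr1* was -0.20 with counts summed per mouse, -0.040 with voom, -0.0014 with only the Gata4(loxP/+) controls, -0.24 without mouse P497, -0.070 without the SCC tumors and -0.084 to 0.19 with a tumor left out. *Tgfbr2* was -0.075 summed, -0.11 without P497 and -0.049 to 0.19 with a tumor left out. *Tgfbr3* was 0.12 summed, 0.084 without P497, 0.21 without the SCC tumors and -0.38 to 0.028 with a tumor left out. *Ltbp1* was -0.23 summed, -0.27 with voom, -0.27 without P497 and -0.12 to 0.48 with a tumor left out. The difference of mean log2 CPM was -0.14 for *Tgfbr1* per mouse and -0.050 without the SCC tumors (-0.064 to 0.19 with a tumor left out), 0.18 for *Tgfbr3* without the SCC tumors, -0.025 to 0.26 for *Tgfbr2* and -0.26 to 0.15 for *Ltbp1* with a tumor left out. The share of *Tgfbr3* differed by 0.34 points per mouse and 1.39 without the SCC tumors (-7.51 to -0.752 with a tumor left out), and that of *Tgfb1* by 17.6 to 22.5 points with a tumor left out. Permutation calls numbered 1 with library size, where *Ltbp2* had p = 0.0535, and 1 to 3 with a tumor left out. Pairs called were 8 over tumors, 0 with library size (*Inhba* with *Tgfbi* adjusted p = 0.0732), 3 centred within cohorts and 0 without the SCC tumors. The causes were not tested.

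Replicate numbers 1, 6, 7 and 15 occur in both cohorts, with correlations of same-numbered tumors of -0.51, -0.31, -0.12 and 0.03, so the tumors share only a number. The replicate block left 3 residual degrees of freedom and 0 calls over all genes, and turned *Tgfb3* to 0.30, *Tgfbr3* to 0.71, *Ltbp1* to -0.15, *Inha* to -1.57, *Gdf15* to -1.09, *Acvr1c* to 0.12, *Fstl3* to 0.31 and *Pthlh* to -0.32.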
